A study of Mus musculus with 22 samples.

Results

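The genes described here are the zinc finger protein genes that carry the mouse symbol Zfp followed by a number, lie on an autosome and were expressed in wild-type fetal liver. They were chosen by 1 measured value, a mean of at least 5 CPM (counts scaled to the size of each library) over the 3 wild-type E14.5 liver RNA libraries, and Zfp292 was left out. This gave 215 members among 366 autosomal genes with such a symbol, out of 37991 genes in the count files. The other 151 were below the minimum or were not counted. A further 3 genes on the X chromosome passed the minimum but were not members. Just above it stood Zfp248 at 5.01, Zfp69 at 5.01 and Zfp772 at 5.02 CPM, and just below it Zfp473 at 4.98, Zfp398 at 4.79 and Zfp13 at 4.78 CPM. The symbol names a protein fold and not a pathway, and members therefore differ in what they do.

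Most zinc finger proteins of this name belong to the C2H2 class, in which each finger folds around a zinc ion and several fingers in a row read a DNA sequence. Many also carry a KRAB domain, which recruits the corepressor TRIM28 and with it the histone methyltransferase SETDB1, and these proteins keep transposable elements and some imprinted loci silent and methylated. KRAB zinc finger genes arose by tandem duplication, stand in clusters, and typically hold all their fingers in the last exon, whose repeated sequence can itself carry repressive chromatin. A minority, such as the Zfp36 family, are of the CCCH class and bind RNA.

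Rlf is itself a zinc finger protein, and the study asked what its loss does to DNA methylation and transcription. All mice were of the FVB/NJ Line3 strain, homozygous for a GFP transgene in several copies, whose expression is driven by human alpha-globin regulatory sequence (its promoter with the HS-40 enhancer). The mutants were homozygous for Rlf MommeD28, a null allele made with ENU and kept in an inbred colony. Embryos came from timed matings of heterozygotes, and the study describes the 4 E14.5 livers used for WGBS as littermates. Whole genome bisulphite sequencing (WGBS) covered 2 wild-type and 2 mutant samples for each of whole embryos at E10.5, livers at E14.5 and livers at E18.5, 12 libraries in all. RNA-seq covered 3 wild-type and 3 mutant E14.5 livers. The E10.5 embryos were male and the E18.5 livers female, whereas the E14.5 sets held both sexes, so tissue, stage and sex cannot be told apart between the tissues. The 4 H3K4me1 samples of the series were not analysed here.

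The RNA libraries held 12928313 to 14621004 counts each. The WGBS analysis used 12771067 autosomal CpGs that every one of the 12 libraries covered by 6 reads or more. A methylation level is the percentage of reads that stayed unconverted over the CpGs of a region (%mCG), where a read counts at each CpG it covers. On the unmethylated lambda spike 0.0412 to 0.0775% of reads were unconverted. Mutant E18.5 replicate 1 stood apart, with a median gene body level of the members of 84.6% against 80.4% in mutant E18.5 replicate 2, and wild-type E14.5 replicate 1 was below replicate 2, at 75.3% against 78.0%. Rlf itself measured 68.3, 74.8 and 68.5 CPM in the wild-type livers and 76.0, 79.4 and 67.5 CPM in the mutants. These groups overlap, and since an ENU allele need not remove the transcript, the counts do not check the genotype. In the RNA libraries hepatoblast and erythroid markers were abundant and the 4 neural markers summed to 0.464 to 2.44 CPM. The summed hepatoblast markers (Alb, Afp, Ttr, Apoa1, Hnf4a, Dlk1) were higher in every mutant, at 67761 to 78480 CPM against 57485 to 65691 CPM, although no single one of the 6 passed the test. The sum of the 4 megakaryocyte markers was also higher in every mutant, at 539.7 to 603.3 CPM against 445.4 to 489.0 CPM, and 1 of them, Pf4, was called (log2 fold change 0.40, adjusted p = 0.0143). Of the neutrophil markers Elane and S100a8 were lower in the mutants, with sums of 454.1 to 539.1 CPM against 483.4 to 701.0 CPM. The summed erythroid (4801 to 5308 against 4726 to 6251 CPM), macrophage (193.1 to 211.0 against 190.2 to 224.7 CPM), endothelial (181.4 to 214.3 against 162.5 to 196.8 CPM) and mesenchymal markers (600.8 to 879.9 against 580.8 to 716.1 CPM) overlapped. The part of such shifts in the results on the members was not tested. In a whole liver, fewer cells of a type and less RNA per cell cannot be told apart.

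For 3 of the members with called genotype differences, stretches where the genotypes lay apart are given here as reference sequence of mm9, with CpGs in capitals. The mice are FVB/NJ, and the authors had mapped their reads to mm9 with known FVB substitutions put in. The first pair flanks the start of Zfp783 on chromosome 6, which is on the plus strand. The upstream stretch, chr6:47892776-47893075, ran from 430 to 131 bases before the start and held 18 CpGs, all of them measured. The other, chr6:47893407-47893706, lies in intron 1 and held 21 measured CpGs.

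Zfp783 upstream: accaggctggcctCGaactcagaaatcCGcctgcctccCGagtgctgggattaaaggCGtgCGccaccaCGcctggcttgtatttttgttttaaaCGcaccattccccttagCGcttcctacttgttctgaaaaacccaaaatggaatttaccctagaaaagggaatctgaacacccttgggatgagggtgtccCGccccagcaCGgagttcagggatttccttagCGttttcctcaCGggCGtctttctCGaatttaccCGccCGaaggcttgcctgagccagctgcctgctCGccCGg

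Zfp783 intron 1: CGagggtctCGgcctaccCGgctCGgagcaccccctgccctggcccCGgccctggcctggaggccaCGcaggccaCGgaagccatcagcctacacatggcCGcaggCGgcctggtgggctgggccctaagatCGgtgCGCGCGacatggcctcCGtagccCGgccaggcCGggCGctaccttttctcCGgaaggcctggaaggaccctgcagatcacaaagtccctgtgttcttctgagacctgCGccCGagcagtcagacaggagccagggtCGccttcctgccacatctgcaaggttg

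The upstream stretch rose from a mean of 6.41% in wild-type to 28.7% in mutant E14.5 liver, and the intronic one from 10.7% to 34.1%. A stretch of intron 1 of Zfp507, chr7:36587368-36587607 on the minus strand, held 12 CpGs and went from 0.931% to 15.4% in the same tissue.

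Zfp507 intron 1: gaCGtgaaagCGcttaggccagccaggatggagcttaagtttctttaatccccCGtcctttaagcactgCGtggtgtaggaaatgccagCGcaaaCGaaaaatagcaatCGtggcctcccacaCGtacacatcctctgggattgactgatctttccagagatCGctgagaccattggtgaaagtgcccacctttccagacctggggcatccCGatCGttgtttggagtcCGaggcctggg

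The last stretch is coding sequence in the last exon of Zfp36, chr7:29163175-29163474 on the minus strand, with 18 CpGs. It is shown because its methylation went from 25.5% to 56.4% in E10.5 embryos, against 13.5% and 16.6% in E14.5 liver.

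Zfp36 last exon: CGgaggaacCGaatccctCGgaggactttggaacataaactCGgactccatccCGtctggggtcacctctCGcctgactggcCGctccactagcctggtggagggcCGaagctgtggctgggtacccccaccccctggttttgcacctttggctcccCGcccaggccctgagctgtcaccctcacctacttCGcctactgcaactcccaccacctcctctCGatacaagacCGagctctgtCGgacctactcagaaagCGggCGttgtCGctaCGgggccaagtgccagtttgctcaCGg

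Beyond the rule, most members had a common gene structure. Of the 214 with a coding transcript, 150 (70.1%) had 50% or more of their coding bases in the last exon, against 10.6% of the 9990 other autosomal coding genes at the same CPM minimum (called other expressed genes below). The median share of coding bases in the last exon was 82.1% against 10.4%, and the median last exon spanned 2541 bases against 1168. The members had a median of 5 exons, and the other genes 10. Chromosome 7 held 43 members and chromosome 17 held 29, and 105 of the 215 had another Zfp gene within 100 kb, a count not set against other genes. Genes of such clusters resemble each other in sequence, and reads that fit several copies may be lost or assigned to the wrong one, which was not tested.

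The members were expressed at modest levels. Their median was 16.9 CPM in wild-type liver against 39.9 CPM for the other expressed genes, and per kilobase of merged exons 4.09 against 10.7 RPKM. The highest per kilobase was Zfp207, a spindle and splicing factor, at 39.3 RPKM, followed by Zfp146 at 36.9. Zfp36l2, which promotes the decay of mRNAs with AU-rich elements, stood at 29.96, and Zfp598, the ubiquitin ligase that senses collided ribosomes, at 27.4. Zfp410, an activator of the chromatin remodeller gene Chd4, stood at 26.5, and Zfp706 at 26.3. The remaining 4 of the 10 highest were Zfp740 at 24.8, Zfp91 at 22.1, Zfp385a at 20.5 and Zfp259 at 18.2 RPKM. These levels chose the members and are a description. None of the 10 passed the test between genotypes, with log2 fold changes between -0.13 and 0.10.

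Between genotypes, 2 of the 215 members passed the adjusted threshold for expression. With edgeR's quasi-likelihood test and Benjamini-Hochberg adjustment over 14183 genes, 99 genes (0.698%) were higher in mutant E14.5 liver and 98 (0.691%) were lower. Among the 215 members, none was higher and 2 were lower, Zfp783 and Zfp507. At an unadjusted p under 0.05, 21 members were higher and 8 lower, or 9.77% and 3.72% of the members beside 8.33% and 6.28% of all genes tested. With DESeq2 these counts were 10 and 5, or 4.65% and 2.33% of the members. No share over all genes is given here for DESeq2, so its counts have no background. The CPM of the genotypes did not overlap in 44 members (20.5%), near the 19.2% of all genes tested. DESeq2 also called 0 members higher and 2 lower. The median log2 fold change of the members was 0.05, with 134 of 215 (62.3%) above 0, beside a median of -0.00 and 49.4% above 0 over all genes tested. The wild-type libraries that chose the members also enter this contrast. Choosing them on all 6 livers again gave 215 members.

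**Figure D1:**
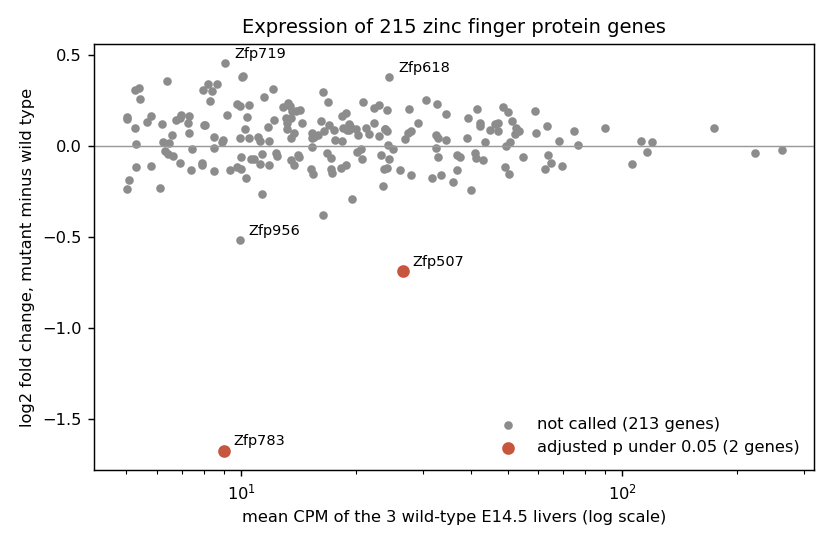
Each point is 1 of the 215 zinc finger protein genes, with its mean CPM in the 3 wild-type E14.5 livers on a log scale (x axis) and its log2 fold change, mutant minus wild type (y axis). Most points lie close to 0 at every level, and Zfp783 at -1.68 and Zfp507 at -0.69, in red, stand below the rest.

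Zfp783 showed the largest difference. It lies at chr6:47893194-47903153 and is annotated as a noncoding processed transcript. Its level was 9.6, 9.99 and 7.46 CPM in the wild-type livers and 3.33, 2.66 and 2.45 CPM in the mutants. Every mutant was below every wild type, and the means were 9.02 ± 1.36 and 2.81 ± 0.457 (SD, n = 3). The log2 fold change was -1.68 with a standard error of 0.18 (adjusted p = 0.000775), resting on 497 counts over the 6 libraries. A second gene record of the same symbol, at chr6:47893297-47905912, overlaps it and Zfp956 and has no row in the count files, so the values are those of the first record. The authors counted in the intersection-strict mode of HTSeq, in which a read that fits more than 1 annotated gene goes to none, so the counts of overlapping genes depend on which records the annotation held.

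Zfp507, a C2H2 zinc finger gene at chr7:36557365-36588008 on the minus strand, stood at 22.8, 28.0 and 28.8 CPM in wild-type liver. In the mutants it measured 17.2, 17.7 and 14.4 CPM. The groups did not overlap, and the means of 26.6 ± 3.24 and 16.4 ± 1.74 CPM gave a log2 fold change of -0.69 with a standard error of 0.11 (adjusted p = 0.0117). Without wild-type replicate 3 the difference was -0.62 and missed the threshold (adjusted p = 0.0504). The antisense gene E130304I02Rik, chr7:36587612-36588046, overlaps the start, and the authors counted reads without regard to strand. That gene had 7 counts over the 6 libraries, against 1804 for Zfp507.

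Further members with low unadjusted p did not pass the adjusted threshold. Zfp956 lies 236 bases downstream of the first Zfp783 record. It measured 10.7, 10.4 and 8.65 CPM in wild-type and 7.89, 6.24 and 6.58 CPM in mutant liver, without overlap (log2 fold change -0.52 ± 0.14 SE, adjusted p = 0.106). With the replicate number as a block it passed (adjusted p = 0.0487). Zfp618 measured 22.5, 27.8 and 23.0 CPM in wild-type and 33.8, 30.4 and 30.7 CPM in mutant liver. All mutants lay above all wild types (0.38 ± 0.09 SE, adjusted p = 0.0555), and with the block it passed (adjusted p = 0.0325), as it did without wild-type replicate 2 (adjusted p = 0.0320). Zfp719 went from 9.08 to 12.4 CPM (adjusted p = 0.0760), Zfp874b from 10.1 to 13.1 CPM (adjusted p = 0.109) and Zfp322a from 41.5 to 47.5 CPM (adjusted p = 0.156). The corepressor gene Zfp217 went from 48.6 to 56.2 CPM (adjusted p = 0.168). On the lower side stood Zfp280d, from 40.1 to 33.8 CPM, Zfp518b, from 16.4 to 12.5 CPM, and Zfp868, from 23.5 to 20.1 CPM, with adjusted p of 0.195, 0.209 and 0.319. With the replicate block 4 members were called in all. With no filter on low counts 5 were called, the further ones being Zfp618 (adjusted p = 0.0148), Zfp719 (adjusted p = 0.0418) and Zfp956 (adjusted p = 0.0446).

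**Figure D2:**
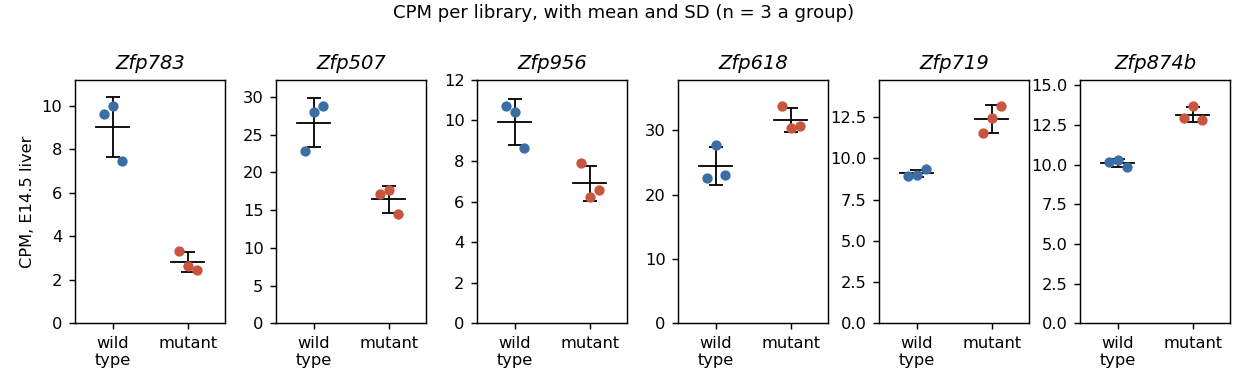
CPM of 6 members in each E14.5 liver library (y axes from 0 and on different scales), with wild type in blue, mutant in red, and black lines for the mean and SD of 3 libraries. These are the 6 members with the lowest p, so their lack of overlap follows from the choice, and of the 6 Zfp783 and Zfp507 passed the test.

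Members grouped by function, from lists written from general knowledge of these genes, held no called gene, in lists too short for that to differ from the background shares given above. Of 12 genes that act on RNA or the ribosome, 10 were members, with a median log2 fold change of -0.04 and a range from -0.16 to 0.22. In this group Zfp36, which encodes the mRNA decay factor tristetraprolin, was at 13.4 and 15.6 CPM, and Zfp36l1 at 39.4 and 43.6 CPM. Of 11 DNA-binding regulators without a KRAB domain, 9 were members, with a median of 0.11, Zfp281 among them at 42.4 and 45.6 CPM. Of 7 KRAB repressors with known targets, 5 were members, with a median of 0.02. Zfp568, a repressor of a placental Igf2 promoter, stood at 111.9 and 113.6 CPM, Zfp809, which silences retroviral sequences, at 6.62 and 6.35, and Zfp445, which acts on imprinted loci, at 47.3 and 49.8. At an unadjusted p under 0.05 there were 1, 2 and 0 genes in these lists, beside 8.33% of all genes tested higher and 6.28% lower. The partners through which such proteins act were measured too, and 19 of 20 were tested. Trim28 (410.1 and 407.4 CPM) and Setdb1 (92.6 and 89.6 CPM) did not pass. The de novo methyltransferase gene Dnmt3a did, at 98.7, 112.2 and 114.7 CPM in wild-type and 135.4, 138.5 and 130.9 CPM in mutant liver (log2 fold change 0.32 ± 0.06 SE, adjusted p = 0.0319). At an unadjusted p under 0.05 there were 4 of the 19. Beside Dnmt3a they were Atf7ip (74.9 and 62.5 CPM, log2 fold change -0.25, adjusted p = 0.205), Chd3 (23.3 and 27.2 CPM, 0.23, adjusted p = 0.240) and Uhrf1 (286.3 and 254.0 CPM, -0.17, adjusted p = 0.290), none of which passed.

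DNA methylation was measured in 3 regions of each member. The TSS window ran 1 kb to either side of the start of the transcript with the longest coding sequence, the gene body from 1 kb downstream of that start to the transcript end, and the last exon was the 3′-most exon of that transcript. For Zfp783, which has no coding transcript, the transcript with the most exonic bases was used. The body includes any part of the last exon beyond 1 kb from the start, so these regions share reads. A region needed at least 5 CpGs, which left 211 windows, 213 bodies and 182 last exons of members. The windows were mostly unmethylated and the rest of the gene was not. In wild-type E14.5 liver the mean of the library medians over members was 3.06% ± 0.131 (SD, n = 2) for the window, 76.6% ± 1.91 for the body and 81.3% ± 1.37 for the last exon. The other expressed genes stood at 2.81%, 73.8% and 78.2%, and all genes tested at 6.73%, 66.3% and 72.2%.

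**Figure D3:**
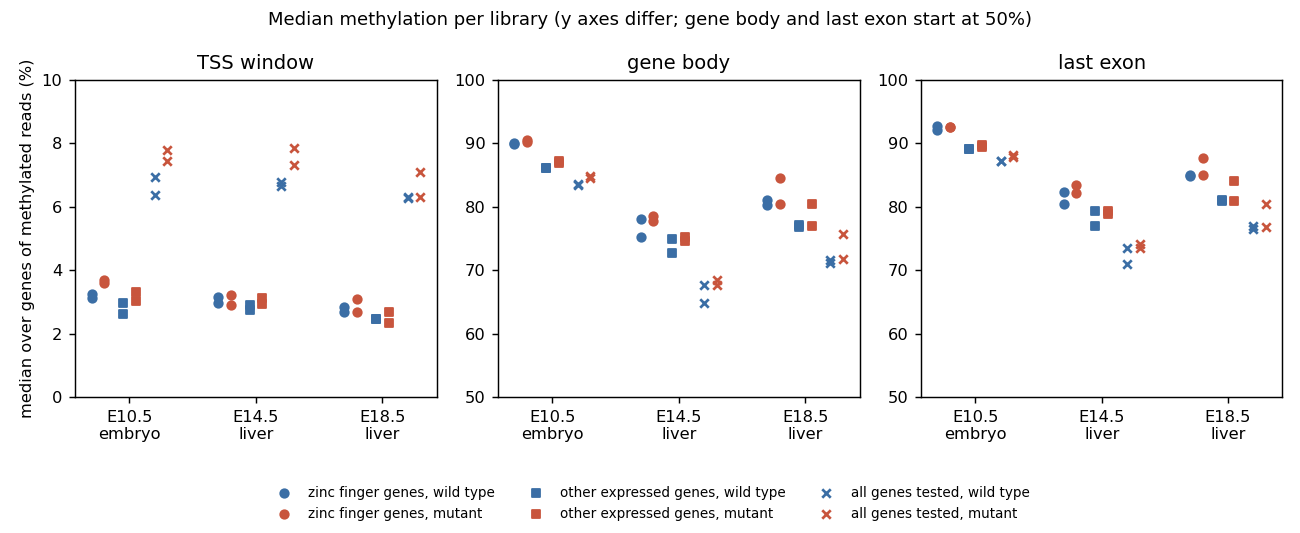
Median methylation over genes in each of the 12 WGBS libraries, by tissue and genotype, for the TSS window (y axis 0 to 10%), gene body and last exon (y axes 50 to 100%). The zinc finger genes (circles) lie above the other expressed genes (squares) and all genes tested (crosses) in the body and last exon of every library, and below all genes tested in the window.

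Of the 211 windows, 169 (80.1%) were below 10% in wild-type E14.5 liver, 30 lay from 10 to 50% and 12 at 50% or more. The shares among the other expressed genes were 79.0%, 13.8% and 7.23%. The highest windows were those of Zfp869 (85.9%), Zfp930 (85.6%), Zfp62 (85.2%), Zfp498 (83.8%) and Zfp329 (83.3%). All 5 genes were expressed, at 8.20 to 47.3 CPM. For Zfp62 and Zfp329 the window depended on the transcript, as the outermost annotated start, 10985 and 7182 bases upstream, was at 1.14% and 4.91%. In Zfp869, Zfp930 and Zfp498 the chosen start is the outermost one.

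Most last exons of the members were highly methylated. The lower and upper quartiles were 76.0% and 84.9% in wild-type E14.5 liver. The median was 81.5% for the 127 measured last exons that hold 50% or more of the coding bases and 80.6% for the 54 that hold less. Of the 182, 13 were under 60% and 6 of these under 10%. Zfp36l2 (0.0894%), Zfp771 (0.290%) and Zfp503 (0.973%) were almost free of methylation, and Zfp697, Zfp703 and Zfp316 lay between 6.996% and 8.08%.

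The genotype comparison of the TSS window, by edgeR's quasi-likelihood test on methylated and unmethylated reads, called a window where the adjusted p was under 0.05 and the groups were 5 percentage points or more apart. In E10.5 embryos 4 of 211 members were higher in the mutants, against a background of 1.45% of 19253 windows, and none was lower (0.0208%). They were Zfp783, Zfp507, Zfp36 and Zfp532. In E14.5 liver 2 were higher (background 0.722%), and none was lower (0.0208%). In E18.5 liver 2 were higher (0.608%), and none was lower (0.0156%). In both livers these were Zfp783 and Zfp507, the genes with lower expression. At an unadjusted p under 0.05, without a minimum difference, 32, 22 and 19 windows of members differed in either direction, which is 15.2%, 10.4% and 9.005% of the members beside 14.6%, 11.5% and 10.7% of all windows. The median difference over members was 0.30 points at E10.5, 0.05 at E14.5 and 0.05 at E18.5, beside 0.36, 0.38 and 0.21 over all windows. Over the other expressed genes the medians were 0.21, 0.10 and 0.05 points. Of their windows 0.777%, 0.343% and 0.323% were called higher, and 13.5%, 8.80% and 8.67% reached the unadjusted threshold. The number called at E10.5 depended on single libraries, with 0 members called without wild-type E10.5 replicate 1 and 2 without mutant E10.5 replicate 2.

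In Zfp783 the window of 81 CpGs was at 6.33% and 8.32% in the wild-type E10.5 embryos and at 15.3% and 15.3% in the mutants. In E14.5 liver it stood at 5.50% and 8.44% in wild-type and at 21.7% and 23.2% in mutant samples. In E18.5 liver the values were 9.51% and 10.2% against 24.8% and 22.3%. The mutants were above the wild types in all 3 tissues, with no overlap. The differences were 7.97 points (adjusted p = 0.00132), 15.5 points (adjusted p = 2.38e-07) and 13.7 points (adjusted p = 5.13e-05). Each level rests on 2252 to 4812 reads, counted at each CpG they cover. The 95% Wilson interval on these counts is at most 2.06 points to either side. It treats counts of the same read at neighbouring CpGs as independent, and so understates even the counting error. Without wild-type E10.5 replicate 1 the E10.5 difference was 6.97 points and missed the threshold (adjusted p = 0.0925).

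The gain at Zfp783 lay at the edges of its unmethylated start. Both mutants were above both wild types at 26, 71 and 57 of the 81 CpGs in embryos and in liver at E14.5 and E18.5, and at no CpG were both below. In the 250 bases that begin 500 bases upstream, E14.5 wild types were at 11.2% and 19.9% and mutants at 52.3% and 51.0%. Just before the start, in the last 250 bases, the levels were 0.616% and 0.201% against 6.13% and 7.68%. From 250 to 499 bases downstream they were 8.89% and 18.2% against 35.3% and 45.3%. The centre thus stayed lowest in both genotypes, and the flanks differed most. Of the sequences of Zfp783 above, the upstream one spans part of the outer flank and part of the low stretch before the start, and the intronic one lies across the downstream flank. In E18.5 liver the upstream one was at 7.30% and 7.49% in wild-type and at 33.8% and 28.9% in mutant samples, and the intronic one at 18.7% and 18.4% against 44.8% and 39.2%.

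The window of Zfp507, with 71 CpGs, was at 1.10% and 2.33% in wild-type and at 4.85% and 9.88% in mutant E10.5 embryos. In E14.5 liver it was at 2.67% and 2.06% against 8.80% and 11.2%, and in E18.5 liver at 1.80% and 1.41% against 13.6% and 6.82%. Mutants and wild types did not overlap in any tissue, but the mutants of a pair differed from each other, most of all at E18.5, where the higher one is the library that stood apart. The differences were 5.65 points (adjusted p = 0.000148), 7.65 points (adjusted p = 1.81e-05) and 8.61 points (adjusted p = 4.61e-06). The E18.5 difference was 5.21 points without mutant E18.5 replicate 1. At E10.5 the call was lost without wild-type replicate 1 and without mutant replicate 2, where the difference was 3.14 points, and in a window of 500 bases to either side, where it was 4.66 points, under the minimum of 5. Both mutants were above both wild types at 36, 43 and 46 CpGs, and both below at 1, 2 and 0. Beyond the window, from 1500 to 1250 bases upstream, the 5 CpGs measured were at 47.7% and 49.2% against 62.3% and 58.9% in E14.5 liver, and at 61.8% and 54.5% against 71.9% and 79.7% in E18.5 liver. In the 250 bases from 1250 downstream, also with 5 CpGs, they were at 82.3% and 82.2% against 76.0% and 79.7% in E14.5 liver. The same CpGs went the other way in E18.5 liver, at 78.4% and 76.7% against 83.0% and 92.5%. In embryos they were at 87.9% and 92.1% against 92.2% and 93.0%. The sequence of intron 1 above was at 0.610% and 1.25% in wild-type and at 13.7% and 17.0% in mutant E14.5 liver.

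**Figure D4:**
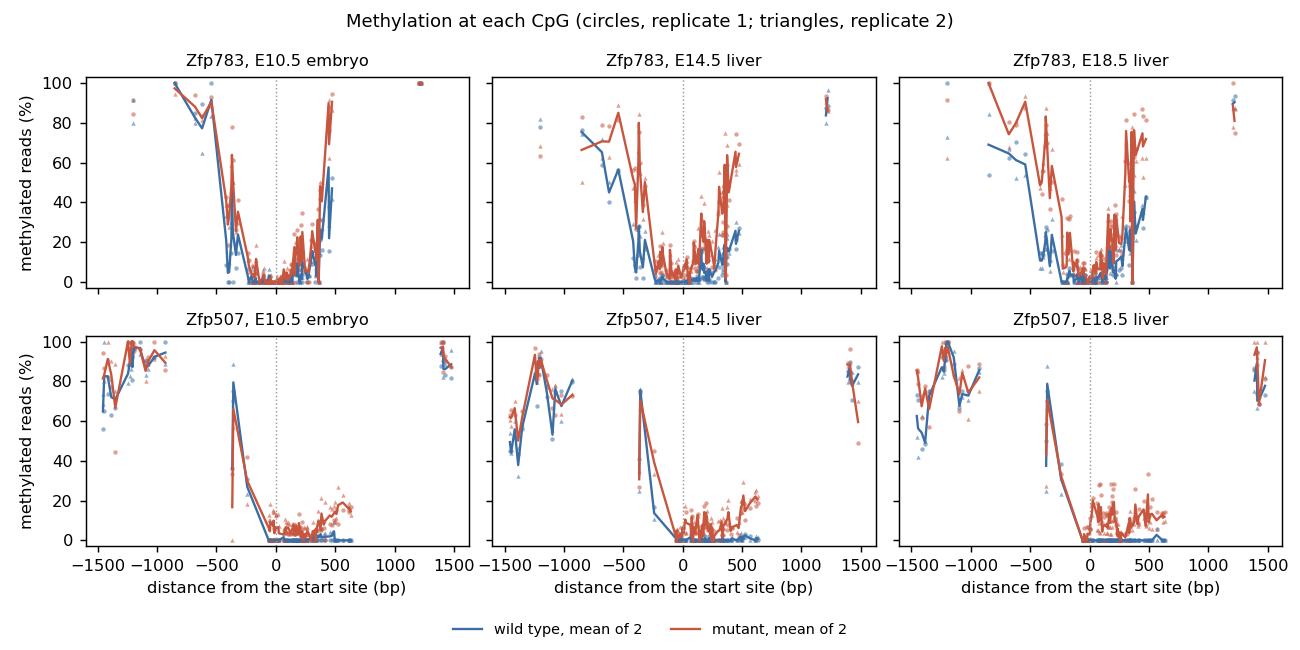
Percentage of methylated reads (y axis) at each CpG from 1500 bases upstream to 1500 downstream of the start (x axis, bp) of Zfp783 (top) and Zfp507 (bottom), in the 3 tissues. Points are single libraries and lines the mean of 2, broken where no CpG lies within 250 bases. At Zfp783 the mutant lines (red) are higher on both flanks, and at Zfp507 they are higher within the first 750 bases downstream, where the wild-type lines (blue) run near 0, while further out both genotypes are highly methylated.

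The neighbours of these starts were compared too. Zfp282, Zfp212, Zfp398, Zfp777 and Zfp956 stand within 100 kb of Zfp783, and their windows differed between genotypes by -1.01 to 1.97 points over the 3 tissues, none of them called. None of these 5 was called in expression, although Zfp956 passed with the replicate block (adjusted p = 0.0487) and with no filter on low counts (adjusted p = 0.0446). The gene next to Zfp507, Dpy19l3, 17892 bases away, was at 22.2 CPM in wild-type and 24.8 CPM in mutant liver (adjusted p = 0.444).

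The E10.5 embryos had 2 further called windows. That of Zfp36 was at 9.52% and 11.3% in wild-type and at 18.1% and 19.98% in mutant embryos (8.62 points, adjusted p = 0.00298). With a window of 500 bases to either side the difference was 1.65 points (adjusted p = 0.273). The window of Zfp36 reaches into its last exon, so its call is not separate from the last exon result below. In the 250 bases from 750 downstream, 12 CpGs had E10.5 means of 19.1% in wild-type and 45.7% in mutant embryos. In those from 500 downstream the means were 6.48% and 23.2%. They were 0.454% and 0.734% in the 250 bases before the start, and 0.347% and 1.01% in the 250 after it. The window of Zfp532 was at 3.75% and 5.37% against 8.61% and 11.5% (5.52 points, adjusted p = 0.00264). In E14.5 liver it was at 8.06% and 8.09% against 13.2% and 13.1%, a difference of 5.06 points that missed the threshold (adjusted p = 0.0904). Both E10.5 calls were lost without wild-type E10.5 replicate 1 (adjusted p = 0.118 and 0.170) and without mutant E10.5 replicate 2 (adjusted p = 0.0620 and 0.0973).

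In the gene bodies, 3 of 213 members were higher in mutant E10.5 embryos (background 2.16% of 18029 bodies), namely Zfp36, Zfp467 and Zfp608, and none was lower (0.0111%). In E14.5 liver none was higher (0.815%), while 2 were lower, Zfp36l1 and Zfp507, among 4 such genes in all (0.0222%). In E18.5 liver no member was called higher (0.782%) or lower (0.0222%). At an unadjusted p under 0.05, 15, 17 and 29 bodies of members differed, or 7.04%, 7.98% and 13.6% of them beside 13.3%, 6.39% and 13.7% of all bodies. The median difference was 0.55, 1.31 and 1.58 points in the 3 tissues, beside 1.02, 1.53 and 1.90 points over all bodies. Counted over the whole gene from its start, 9 members were called at E10.5 and 2 at E18.5, for which no share over all genes is given here. At E10.5, 6 members were called without wild-type replicate 2, and at E14.5, 1 was called without mutant replicate 2. The E18.5 count rested on 1 library. It rose without mutant E18.5 replicate 2, which leaves the high replicate 1 alone. No share over all bodies is given for that fit, so a rise common to all genes is not told apart.

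Among 182 last exons, 2 were higher in mutant E10.5 embryos (background 1.86% of 14871), Zfp36 and Zfp467, and none was lower (0.0336%). In E14.5 liver none was higher (0.995%) and 2 were lower (0.0538%), Zfp36l1 and Zfp507. These genes were also called in the body, which overlaps the last exon, so the calls are not separate results. Last exon and body had 57 and 74 measured CpGs in Zfp36l1, 128 and 177 in Zfp467, and 66 and 281 in Zfp507. In E18.5 liver Zfp948 was higher (background 1.0%) and Zfp507 lower (0.0605%). Unadjusted p under 0.05 was reached by 12, 12 and 17, or 6.59%, 6.59% and 9.34% of members beside 10.7%, 7.69% and 11.0% of all last exons. Among the other expressed genes 8.03%, 5.12% and 9.43% reached it, and 1.11%, 0.454% and 0.416% were called higher. At E10.5, 4 were called without wild-type replicate 2. At E14.5, 0 were called without replicate 2 of either genotype and 1 without replicate 1 of either. At E18.5, 0 were called without either wild type, 1 without mutant replicate 1 and 7 without mutant replicate 2. The call of Zfp948 rests on 7 CpGs with as few as 90 reads, went from 78.0% and 79.0% to 93.5% and 90.3% (adjusted p = 0.0412), and was lost in a fit of the E18.5 libraries alone (adjusted p = 0.0685) and without either wild-type replicate (adjusted p = 0.229 and 0.2004) or mutant replicate 1 (adjusted p = 0.351).

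Zfp36 changed most, and at E10.5. Its last exon, 1710 bases long with 97.5% of the coding sequence, was at 35.7% and 40.1% in the wild-type embryos and at 70.0% and 61.4% in the mutants. In E14.5 liver it stood at 28.4% and 27.6% against 27.5% and 33.5%, and in E18.5 liver at 22.6% and 22.8% against 28.2% and 29.4%. The genotypes were far apart in the embryo and overlapped in E14.5 liver. In E18.5 liver both mutants were above both wild types, but the difference was smaller than in the embryo and was not called. The differences were 27.7 points (adjusted p = 7.48e-10), 2.51 points (adjusted p = 0.931) and 6.12 points (adjusted p = 0.337). A test of whether the genotype difference itself varied with tissue passed for the last exon (adjusted p = 0.00242) and for the gene body (adjusted p = 7.16e-06). In the embryo the mutants were also higher upstream. In the 250 bases that begin 2500 bases before the start the wild types were at 18.4% and 19.3% and the mutants at 53.5% and 48.4%, whereas E14.5 livers lay between 5.58% and 7.02%. RNA was not measured at E10.5, and in E14.5 liver Zfp36 was at 11.5, 14.2 and 14.6 CPM in wild-type and at 15.1, 17.2 and 14.4 CPM in mutant samples, with overlap (adjusted p = 0.418).

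Zfp467, a regulator of adipocyte and osteoblast differentiation, had a last exon of 128 CpGs that was at 15.8% and 17.0% in wild-type and at 32.9% and 26.8% in mutant E10.5 embryos (13.5 points, adjusted p = 2.19e-06). In E14.5 liver the values were 71.0% and 73.4% against 74.6% and 74.8%. In E18.5 liver they were 77.4% and 75.9% against 79.0% and 75.8%. The genotype effect on its body varied with tissue (adjusted p = 0.000808), while that on its last exon missed the threshold (adjusted p = 0.0681). The body of Zfp608 was at 54.0% and 55.5% in wild-type and at 62.2% and 64.6% in mutant embryos (8.70 points, adjusted p = 0.000663), a call lost without wild-type replicate 1 (adjusted p = 0.171) or mutant replicate 2 (adjusted p = 0.181). Tests of a variation with tissue were called in 0.0156% of all windows, 0.0666% of all bodies and 0.0336% of all last exons. Among members they were called in 0 windows, 2 bodies and 1 last exon, and 14, 8 and 10 reached an unadjusted p under 0.05. These are 6.64%, 3.76% and 5.49% of members beside 4.57%, 2.01% and 4.19% of all regions of each kind.

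Zfp36l1 and Zfp507 went the other way. The last exon of Zfp36l1, whose protein also promotes mRNA decay, was at 57.5% and 62.3% in wild-type and at 50.1% and 47.5% in mutant E14.5 liver (-11.1 points, adjusted p = 0.0388). Its body was at 42.6% and 48.0% against 35.7% and 34.2% (adjusted p = 0.000949). The last exon call was lost on leaving out any 1 of the 4 libraries (adjusted p = 0.0995 to 0.504), and that of the body without wild-type replicate 2 (adjusted p = 0.239) or mutant replicate 2 (adjusted p = 0.166). Zfp507 combined a gain at its start with a loss further in. Zfp783 moved the same way in E14.5 liver, but without a call further in. Its body had means of 80.1% in wild-type and 74.4% in mutant samples (adjusted p = 0.283). Its last exon had means of 79.3% and 73.2% (adjusted p = 0.464). The last exon of Zfp507 was at 80.3% and 83.4% in wild-type and 73.0% and 71.4% in mutant E14.5 liver (adjusted p = 0.00206). In E18.5 liver it was at 86.3% and 86.0% against 79.4% and 76.9% (adjusted p = 0.00544). The body of Zfp507 was at 77.2% and 80.5% against 70.7% and 69.9% in E14.5 liver (adjusted p = 1.36e-05). Its E18.5 means of 81.9% and 78.3% were not called (adjusted p = 0.246). Whole gene counting at E14.5, which takes in the start, gave -4.83 points and no call (adjusted p = 0.316). In E10.5 embryos the last exon of Zfp507 was at 94.4% and 92.0% against 92.4% and 92.7%. The last exon calls were lost without wild-type or mutant E14.5 replicate 2 (adjusted p = 0.195 and 0.104) and without either E18.5 wild type (adjusted p = 0.104 and 0.0809).

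**Figure D5:**
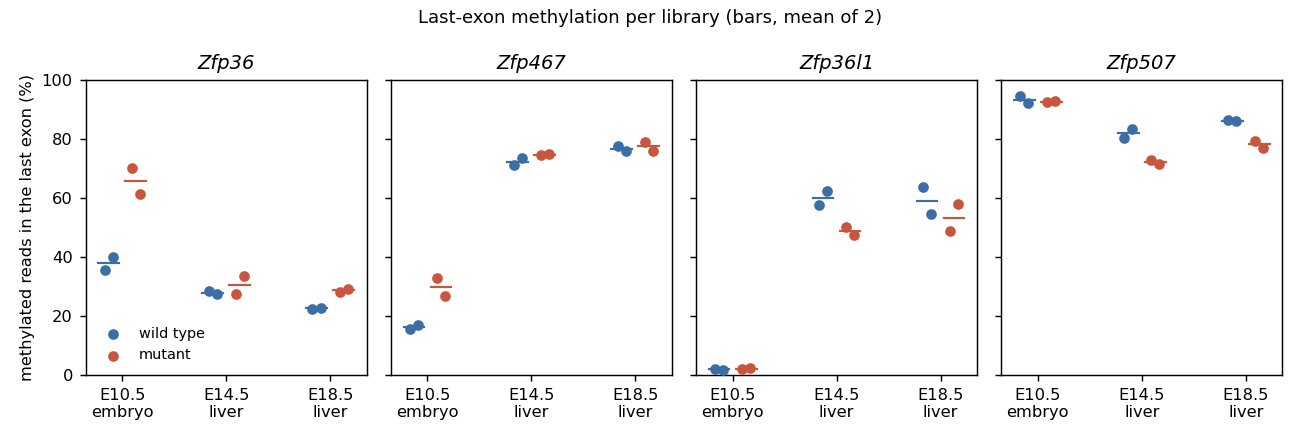
Methylation of the last exon (y axis, 0 to 100% of reads) in each of the 12 libraries for 4 members, by tissue, with wild type in blue, mutant in red and bars at the mean of 2. Mutants are far above wild types at E10.5 for Zfp36 and Zfp467, and below them at E14.5 for Zfp36l1 and Zfp507, while the tissues differ widely for Zfp467 and Zfp36l1.

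Median levels of bodies and last exons differed more between embryo and liver than between genotypes. From wild-type E10.5 embryo to E14.5 liver the median body of the members went from 90.0% to 76.6% and the last exon from 92.3% to 81.3%. At E18.5 they stood at 80.6% and 84.8%. Between embryo and E14.5 liver 186 of 213 bodies were lower and 9 higher, where the background was 88.9% lower and 1.36% higher. For last exons 136 of 182 were lower and 10 higher, against 75.9% and 2.95%. For windows 20 of 211 were lower and 3 higher, against 32.0% and 2.51%, with 12.7% lower among the other expressed genes. From E14.5 to E18.5 liver 49 bodies were higher and 2 lower (background 35.1% and 0.25%). That is 23.0% of the members higher, and among the other expressed genes 17.6% were. In the same step 10 last exons were higher and none lower (7.24% and 0.235%), and 2 windows were higher and none lower (1.72% and 0.171%). At an unadjusted p under 0.05, 60 last exons and 32 windows differed in this step, or 33.0% and 15.2% of members beside 29.0% and 21.6% of all. Counted over the whole gene, 15 members were called in this step. The 49 and 2 bodies together became 3 without wild-type E14.5 replicate 1, 86 without its replicate 2, 31 without wild-type E18.5 replicate 1 and 8 without its replicate 2. The 10 last exons became 1 without wild-type E14.5 replicate 1 and 2 without either E18.5 wild type, and the 2 windows became 0 without any 1 of the 4 libraries.

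A few last exons ran against the general loss. In wild-type samples that of Zfp36l1 rose from 2.104% in the embryo to 59.9% in E14.5 liver, and that of Zfp467 from 16.4% to 72.2%. Zfp282 rose from 52.5% to 84.2%, Zfp238, which encodes a neural transcriptional repressor, from 53.2% to 84.6%, and Zfp385a, a cofactor of p53, from 22.3% to 50.4%. These 5 were called, each on 47 or more CpGs. The largest falls were those of Zfp523 (93.9% to 66.2%), Zfp280d (92.0% to 68.3%), Zfp58 (94.1% to 72.8%), Zfp618 (93.2% to 72.3%) and Zfp120 (92.3% to 71.5%), which were called too, though all but that of Zfp618 rest on 12 CpGs or fewer. From E14.5 to E18.5 liver Zfp444 rose from 49.4% to 67.9% (adjusted p = 0.000163), after 49.5% in the embryo. Its wild-type libraries spread widely in the embryo (SD 9.83 points) and in E18.5 liver (6.28), but not in E14.5 liver (0.973).

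Among the windows, those of Zfp238 (23.98% to 34.3%), Zfp740 (12.7% to 20.1%) and Zfp219 (6.41% to 13.1%) rose from embryo to E14.5 liver. The largest fall was that of Zfp715, from 69.6% to 32.5%, with 47.0% at E18.5. Its window is at an internal start, and that of the outermost start, 1808 bases upstream, was at 3.48%, 2.81% and 3.64% in the 3 tissues. The outermost start of Zfp740, 961 bases upstream, was at 1.43% and 3.69% in embryo and E14.5 liver, and that of Zfp111, 7860 bases upstream, at 79.6% and 60.2%. Zfp775 (92.4% to 70.8%), Zfp317 (93.9% to 72.7%), Zfp111 (90.9% to 75.5%) and Zfp874a (29.7% to 14.9%) fell as well. The windows of Zfp317, Zfp775, Zfp715 and Zfp238 rest on only 6, 10, 14 and 14 CpGs. For Zfp775 the SD of the wild-type E14.5 level was 7.11 points. All these differences at the chosen starts were called.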

How the data were processed

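WGBS was available for 12 samples and RNA-seq for 6, as deposited by the authors. The authors mapped bisulphite reads with Bismark and Bowtie2 to mm9 carrying known FVB substitutions, removed duplicates and deposited, per CpG, counts of converted and unconverted reads with both strands merged. They also deposited the percent methylation of each CpG, which was not used. The RNA files hold raw read counts per Ensembl gene, which the authors made with TopHat and HTSeq without strand.

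Genes were placed with GENCODE vM1 on mm9. Expression was tested with edgeR 4.0.16 in R 4.3.3 (TMM, filterByExpr, quasi-likelihood, Benjamini-Hochberg over 14183 genes), with DESeq2 1.42.0 as an alternative. CPM scales counts by the library total, and RPKM divides it by merged exon length. For methylation, reads were summed over the CpGs that each of the 12 libraries covered by 6 or more reads, in regions with at least 5 such CpGs. Methylated and unmethylated counts entered 1 edgeR fit of the 6 groups with 1 intercept per library, and calls needed an adjusted p under 0.05 and a difference of at least 5 points. The scripts were checked on simulated counts. Named genes were all called members, the extremes by unadjusted p, level and tissue difference, and the genes next to the CPM minimum. The members and lists were chosen with earlier results of these data known.

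RNA totals were 12928313 to 14621004 counts. Mean depth per CpG kept was 22.6 to 45.4 reads. The E14.5 WGBS livers were littermates, and for the other samples the litters are not given in the sources used here, so p-values measure the spread between these samples. RNA libraries with the same replicate number deviated together (r = 0.125, 0.226 and 0.409 over 14183 genes), and replicate 3 was female in both genotypes, so a fit with the replicate number as a block was run. Sequences were read from the mm9 genome supplied. The KRAB class was not determined from sequence, and the lists that name it were written from general knowledge of those genes.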

Additional observations from a re-analysis of the deposited data

Results flagged for a closer look

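In 3 regions of members the difference between mutant and wild type itself differed between the tissues, by edgeR's quasi-likelihood test of the interaction of genotype and tissue with Benjamini-Hochberg adjustment. The gene body of Zfp36 (adjusted p = 7.16e-06) was at 46.1% in wild-type and 72.9% in mutant E10.5 embryos, at 37.2% and 40.8% in E14.5 liver, and at 29.2% and 37.5% in E18.5 liver. The last exon of Zfp36 (adjusted p = 0.00242) overlaps that body and is no separate result, with 37.9% and 65.7%, 28.0% and 30.5%, and 22.7% and 28.8%. The gene body of Zfp467 (adjusted p = 0.000808) was at 20.2% and 31.1% in embryos, 65.1% and 68.5% in E14.5 liver, and 70.5% and 68.3% in E18.5 liver. Mutants were above wild types in 2 of 2 libraries at E10.5 for each. The tissues also differ in stage and sex, and the embryo is a mixture of many cell types, so these cannot be told apart.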

How the results depend on the processing

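Under the alternatives, 151 values of group results stayed within 1.5 times the count or 1 SD and 70 moved. For single genes, 193 values stayed as in the main fit, whether called or not called, 6 gained a call, 27 lost it and none turned direction. The gains and losses are named beside each gene in the results. With the replicate block 4 members were called in expression, with no filter on low counts 5, and among members at 10 CPM or more 1. The block also gave 1 window and 6 last exons from E14.5 to E18.5 liver, although WGBS libraries sharing a number did not deviate together (r from -0.0479 to 0.0858 over regions). A window of 500 bases gave 2 calls at E10.5, 15 from embryo to E14.5 liver and 1 from E14.5 to E18.5 liver. Without the minimum difference, 76 and 4 windows were called in these 2 tissue steps, 5 bodies at E10.5, 2 at E18.5, and 93 from E14.5 to E18.5 liver. Over the whole gene, 9 bodies were called at E10.5, 2 at E18.5 and 15 from E14.5 to E18.5 liver. At 10 reads per CpG 1 window was called from E14.5 to E18.5 liver and 1 last exon at E18.5. The outermost start, an alternative chosen after seeing the data, also gave 1 window in that step. The farthest transcript gave 1 last exon at E10.5. At 10 CpGs a region, or with the compared libraries alone, 1 last exon was called at E18.5. The interaction tests were not repeated under the alternatives.

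Leaving out 1 library at a time gave 1 to 3 members called in expression. Windows called ran from 0 to 5 at E10.5, 2 to 2 at E14.5 and E18.5, 19 to 24 from embryo to E14.5 liver, and 0 to 0 from there to E18.5. Bodies ran from 2 to 6, 1 to 2 and 0 to 37 between genotypes, and 192 to 195 and 3 to 86 between tissues. Last exons ran from 2 to 4, 0 to 1 and 0 to 7, and 135 to 151 and 1 to 7. With 1 library left in a group, its spread is taken from the other groups. Shares over all genes in these fits and under the other alternatives are not given here. A change in the count of members is thus not told apart from a change common to all genes.

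The level pooled over all reads of the members was, in wild-type and mutant samples of the 3 tissues in turn, 4.51% and 5.25%, 4.49% and 4.99%, and 4.06% and 4.2001% for windows. For bodies it was 80.4% and 82.2%, 69.9% and 71.7%, and 73.2% and 74.8%. For last exons it was 70.2% and 73.1%, 68.3% and 70.2%, and 70.0% and 70.7%. In the groups named next it moved by over 1 SD with a mean over CpGs. Windows were then at 5.86% in wild-type and 6.10% in mutant embryos, and at 4.85% and 5.13% in E18.5 liver. Bodies were at 81.7% and 82.8% in embryos and 73.6% in wild-type E18.5 liver. Last exons were at 73.9% and 74.7% in embryos, 69.0% in wild-type E14.5 liver, and 71.8% and 72.8% in E18.5 liver. At 10 reads per CpG, windows were at 4.17% and 4.86% in wild-type and mutant embryos, 4.001% and 4.47% in E14.5 liver, and 3.70% in wild-type E18.5 liver. Bodies were then at 72.9% in wild-type E18.5 liver. Last exons were at 72.2% in mutant embryos, 67.6% and 69.5% in E14.5 liver, and 69.3% in wild-type E18.5 liver. With 2 libraries a group, the SD behind these comparisons is itself poorly known.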
